A study of Homo sapiens with 12 samples.

Results

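The genes described here copy DNA or supply what copying needs. They comprise 48 symbols, chosen by name as genes of DNA replication and nucleotide synthesis, with 1 probe set per gene, the one with the highest mean over the arrays. All 48 were measured, among 18417 genes tested. By role they fall into 5 genes of origin licensing, 13 of the helicase, 2 encoding the firing kinase, 17 of the polymerases, clamp and fork, 5 of nucleotide synthesis and 6 of chromatin assembly and E2F.

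The cells were MCF10A, a non-tumorigenic human breast epithelial line, stably transfected with a chimera of full-length HER2 carrying FKBP and HA tags. There were 4 groups of 3 arrays each: untreated cells, and cells given AP1510, TGF-alpha or heregulin and harvested after 48 hours. AP1510 is a bivalent compound that joins FKBP-tagged receptors into homodimers, TGF-alpha binds EGFR, and heregulin binds HER3 and HER4. The design asks how the transcripts differ with the receptor that is engaged. All groups carried the chimera, and all grew in medium with 5% horse serum and 20 ng/ml EGF until the switch, 24 hours before ligand, to medium without serum or EGF that still held insulin (10 microgram/ml), hydrocortisone (500 ng/ml) and cholera toxin (100 ng/ml). The labels do not say whether the transfected cells were a clone or a pool, and they give neither the dose nor the time at which untreated cells were harvested. Where all treatments differ alike from untreated cells, ligand and time in culture therefore cannot be told apart. The 3 arrays of a group came from 1 line grown in dishes, and the spread behind each p-value is that between arrays of a group. Whether these arrays were separate experiments is not known here.

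Levels are log2 intensities, on which a difference of 1 is a doubling, and errors beside changes are standard errors of a linear model fitted with limma to all genes and all 12 arrays. A gene passed at a Benjamini-Hochberg adjusted p under 0.05 over all genes tested, and "rose" and "fell" are used of such genes. For arrays, their number limits the precision. Array medians over the whole table ran from 5.33 to 5.44. Of the 10 epithelial and basal markers listed, 6 were measured, at means of 7.80 for KRT14 to 12.1 for KRT5, against a median of 5.97 over all genes. Means ran from 2.98 (PTPRC) to 7.75 (CD68) for 4 leukocyte markers, 4.11 (VWF) to 8.52 (PECAM1) for 4 endothelial markers, 3.77 (PDGFRA) to 7.35 (DCN) for 5 fibroblast markers and 3.53 (PGR) to 8.05 (GATA3) for 4 luminal markers, so each of these lists also held a gene above that median. Some of these markers changed with the treatments, and their part in the results was not tested. With AP1510 KRT5 and KRT14 rose. With TGF-alpha KRT5, KRT14, EPCAM, ITGB4 and KDR rose, while CDH3, the luminal genes GATA3 and KRT19, CD68, CDH5 and DCN fell. With heregulin KRT5, KRT14, KDR (1.95-fold, adjusted p = 0.00091) and DCN (3.01-fold, adjusted p = 9.1e-07) rose, while EPCAM (2.13-fold, adjusted p = 0.0025), PECAM1 and CDH5 fell. The mean of the 5 fibroblast markers was 5.88 to 6.03 on the heregulin arrays, 5.55 to 5.66 on the untreated ones, 5.55 to 5.68 with AP1510 and 5.36 to 5.43 with TGF-alpha. Values without detection calls do not show whether these genes were off. ERBB2, which the chimera also encodes, had a mean of 11.1. Of the 3 receptor genes listed, ERBB2 (log2 change 0.55) and EGFR rose and ERBB3 (-0.92) fell with TGF-alpha. EGFR also rose with heregulin (0.60), and none of the 3 passed with AP1510. The part of these receptor changes in the results was not tested.

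Replication starts with licensing, in which the origin recognition complex, CDC6 and CDT1 load the MCM2 to MCM7 ring onto DNA in G1. In S phase the CDC7-DBF4 kinase, CDC45 and the GINS complex turn that ring into a moving helicase, polymerases alpha, delta and epsilon copy the strands behind it with the sliding clamp PCNA, and ribonucleotide reductase and thymidylate synthase supply deoxynucleotides. Many of these genes are known targets of E2F transcription factors, which the RB protein restrains until growth factor signals release them, and epithelial cells that leave the cycle lower them.

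Because the members moved together, their promoters are shown before their levels. RefSeq promoters, on build GRCh38.p14, run from 250 bases before a listed start of the gene to 50 bases from it. They were matched by symbol for 41 members, at the first listed start where a gene had several, as 11 members did. The start used can lie inside the gene, as for PRIM2, UHRF1 and CDC45. Each was searched on both strands for 4 words of the E2F site, TTTGGCGC, TTTCCCGC, TTTCGCGC and TTTGCCGC. At least 1 word was found in 21 of the 41 promoters (51.2%), against 644 of 14239 promoters of tested genes (4.52%). With each listed start counted, the shares were 24 of 41 (58.5%) and 5.51%. The median GC content was 64.7% in the members' windows and 63% over all. Other short motifs stood nearer to the share over all promoters. The CCAAT box (CCAAT) was in 51.2% of the members' promoters against 36.3%, the GC box (GGGCGG) in 68.3% against 60%, and the cell cycle homology region (TTTGAA) in 4.88% against 11.9%. A word is a description of the letters and not a measured binding site.

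Of the 28 E2F words, 20 began between 60 bases before and 30 bases after the start. Words may overlap: MCM6 had 4, in overlapping pairs that began 152 and 90 bases before the start. They were in 8 of 10 helicase promoters, 7 of 14 of the polymerase and fork genes, 3 of 5 of the chromatin and E2F genes, 2 of 5 licensing genes, 1 of 5 nucleotide genes and 0 of 2 kinase genes. The 8 stretches below, 210 bases each from 180 before the start to base 30, are those of the gene that TGF-alpha raised most (TYMS), of helicase, licensing and clamp genes with words (MCM6, MCM3, CDC6, PCNA), of E2F1 itself, and of CDC45 and RFC4, which rose strongly and have no such word. Each reads 5′ to 3′ on the gene's strand, and capitals mark a word or its reverse complement. Near forms are not marked, such as tttggcgg in the CDC45 stretch, which differs from TTTGGCGC in its last base.
TYMS, chr18:657473-657682, plus strand: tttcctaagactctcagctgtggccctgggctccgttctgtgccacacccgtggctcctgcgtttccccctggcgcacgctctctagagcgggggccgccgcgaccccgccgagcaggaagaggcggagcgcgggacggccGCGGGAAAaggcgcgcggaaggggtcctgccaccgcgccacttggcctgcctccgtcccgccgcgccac
MCM6, chr2:135876414-135876623, minus strand: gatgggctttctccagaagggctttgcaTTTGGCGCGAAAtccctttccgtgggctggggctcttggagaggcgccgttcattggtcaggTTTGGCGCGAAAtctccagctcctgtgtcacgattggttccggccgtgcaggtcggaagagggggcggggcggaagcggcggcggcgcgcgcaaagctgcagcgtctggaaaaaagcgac
MCM3, chr6:52284713-52284922, minus strand: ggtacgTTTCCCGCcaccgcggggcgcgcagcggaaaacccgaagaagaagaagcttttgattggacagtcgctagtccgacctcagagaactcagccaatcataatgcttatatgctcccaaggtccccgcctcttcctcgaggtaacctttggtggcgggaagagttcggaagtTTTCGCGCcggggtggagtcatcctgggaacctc
CDC6, chr17:40287699-40287908, plus strand: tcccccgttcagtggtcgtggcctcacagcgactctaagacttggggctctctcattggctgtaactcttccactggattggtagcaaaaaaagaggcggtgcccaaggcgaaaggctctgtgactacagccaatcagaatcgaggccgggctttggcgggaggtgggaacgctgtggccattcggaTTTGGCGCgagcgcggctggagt
PCNA, chr20:5126593-5126802, minus strand: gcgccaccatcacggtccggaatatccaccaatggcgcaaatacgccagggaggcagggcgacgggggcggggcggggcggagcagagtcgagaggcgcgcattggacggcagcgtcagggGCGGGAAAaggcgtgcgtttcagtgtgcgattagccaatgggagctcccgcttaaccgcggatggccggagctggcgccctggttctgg
E2F1, chr20:33686356-33686565, minus strand: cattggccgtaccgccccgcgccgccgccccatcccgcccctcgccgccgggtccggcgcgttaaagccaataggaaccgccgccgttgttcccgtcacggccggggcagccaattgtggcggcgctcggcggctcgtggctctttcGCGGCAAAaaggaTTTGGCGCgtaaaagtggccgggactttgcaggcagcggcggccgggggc
CDC45, chr22:19479740-19479949, plus strand: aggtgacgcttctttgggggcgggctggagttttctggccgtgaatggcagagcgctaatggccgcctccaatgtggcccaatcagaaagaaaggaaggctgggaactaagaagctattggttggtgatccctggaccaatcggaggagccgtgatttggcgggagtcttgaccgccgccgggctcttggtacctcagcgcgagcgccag
RFC4, chr3:186806453-186806662, minus strand: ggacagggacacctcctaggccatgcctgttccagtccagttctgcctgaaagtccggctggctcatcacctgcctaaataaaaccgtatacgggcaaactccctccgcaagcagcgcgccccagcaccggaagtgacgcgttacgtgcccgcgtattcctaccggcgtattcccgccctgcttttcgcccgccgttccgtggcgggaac

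Members with and without a word did not separate by their response to TGF-alpha. The 21 with a word changed by a median of 1.26 (0.42 to 2.40) and the 20 without by a median of 1.24 (0.42 to 2.07), on the log2 scale. The split rests on the listed words alone, and members without a word may hold near forms, as CDC45 does. Whether E2F acts on these promoters was not tested.

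Among the 4 groups, 46 of 48 members differed by limma's moderated F test, against 28.5% of all genes. TGF-alpha gave the highest mean for 47 members, with AP1510 next for 43 of these, and for 43 members the 3 TGF-alpha arrays lay above the other 9 arrays. With TGF-alpha against untreated cells 47 of 48 members rose, while 12.5% of all genes rose and 13.4% fell. None of the 48 fell, and the count at an unadjusted p under 0.05 was also 0. The median change was 1.19, or 2.29-fold, against -0.0085 over all genes. All 3 TGF-alpha arrays lay above the 3 untreated arrays for 46 members, as for 19.4% of all genes. Between 43 and 47 members rose when each array was left out in turn. In RNA from whole dishes, more cells with a transcript and more transcript per cell cannot be told apart.

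**Figure D1:**
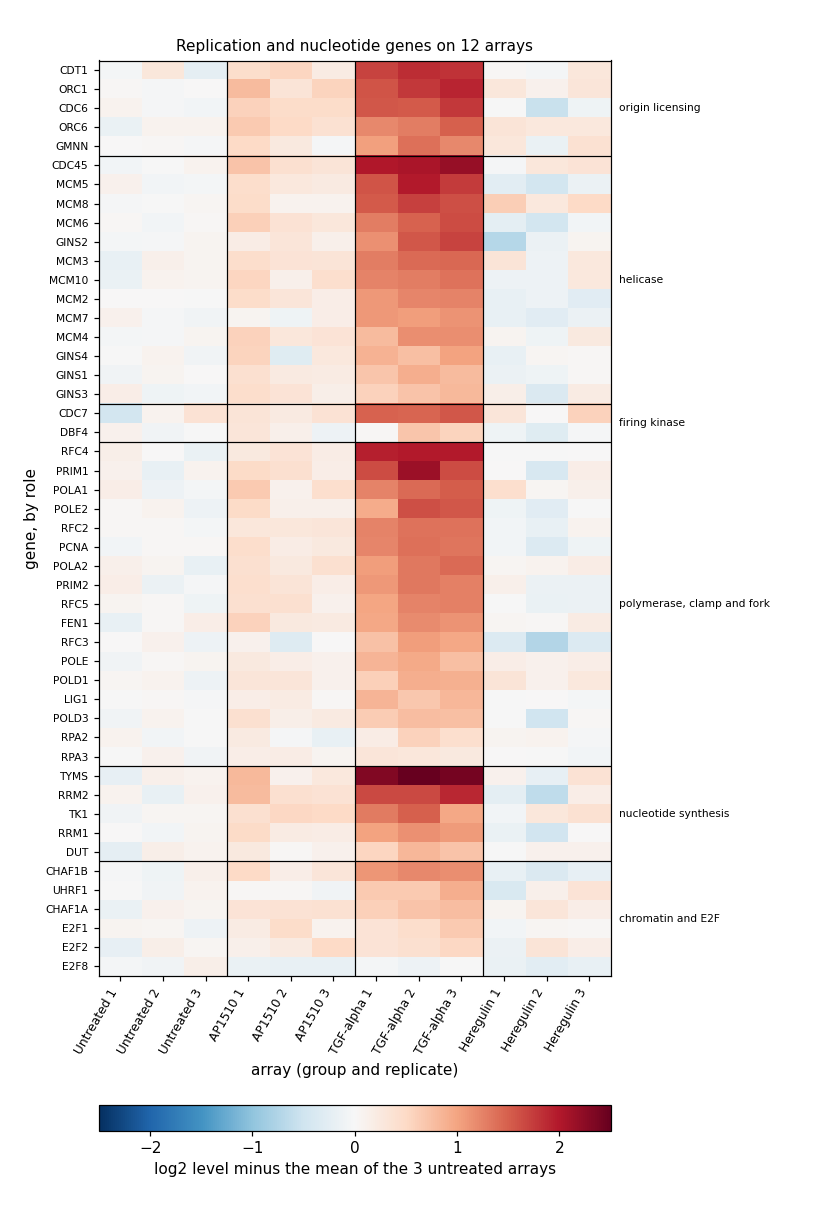
Heat map of the 48 genes (rows, by role) on the 12 arrays (columns); colour is the log2 level minus the mean of the 3 untreated arrays. The 3 TGF-alpha columns are red for every gene but E2F8, palest for DBF4 on replicate 1, AP1510 columns are pale red for most genes, and heregulin columns are mixed.

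All 5 licensing genes rose with TGF-alpha. CDT1, which carries the MCM ring to origins, stood at 6.06, 6.38 and 5.89 on the untreated arrays, 6.55, 6.64 and 6.31 with AP1510, 7.79, 7.95 and 7.92 with TGF-alpha and 6.13, 6.07 and 6.40 with heregulin. TGF-alpha raised it 3.43-fold (1.78 ± 0.13, adjusted p = 4.1e-08), and the untreated and heregulin arrays overlapped. ORC1, the largest subunit of the origin recognition complex, stood at 5.07, 5.00 and 5.04 untreated, 5.82, 5.37 and 5.59 with AP1510, 6.61, 6.81 and 6.95 with TGF-alpha and 5.32, 5.14 and 5.33 with heregulin. No groups overlapped, though the lowest AP1510 array was just above the highest heregulin array. It rose 3.37-fold with TGF-alpha (adjusted p = 1.7e-08). CDC6, the loader ATPase, measured 6.47, 6.35 and 6.30 untreated, 6.94, 6.82 and 6.84 with AP1510, 7.93, 7.92 and 8.14 with TGF-alpha and 6.36, 5.82 and 6.26 with heregulin. TGF-alpha raised it 3.08-fold (adjusted p = 5.6e-08), and AP1510 arrays lay between those of TGF-alpha and untreated cells with no overlap. ORC6, the smallest subunit of the complex, measured 4.89, 5.14 and 5.15 untreated, 5.71, 5.56 and 5.44 with AP1510, 6.27, 6.33 and 6.56 with TGF-alpha and 5.38, 5.33 and 5.33 with heregulin. Every treated array was above every untreated array. GMNN, which encodes geminin, the inhibitor of CDT1, rose 2.30-fold (adjusted p = 9.7e-06).

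All 13 helicase genes rose with TGF-alpha, by a median of 2.44-fold. CDC45, which binds the MCM ring to activate it, stood at 5.64, 5.71 and 5.80 untreated, 6.43, 6.11 and 6.04 with AP1510, 7.72, 7.75 and 7.89 with TGF-alpha and 5.69, 5.99 and 6.06 with heregulin. It rose 4.19-fold (2.07 ± 0.12, adjusted p = 3.6e-09), the second largest rise of the 48. MCM5, a subunit of the ring, measured 6.71, 6.54 and 6.57 untreated, 7.05, 6.88 and 6.83 with AP1510, 8.17, 8.58 and 8.36 with TGF-alpha and 6.35, 6.15 and 6.47 with heregulin. TGF-alpha raised it 3.40-fold (adjusted p = 1.4e-08), and its heregulin arrays lay below every untreated array. MCM6, another subunit, measured 7.05, 6.97 and 7.06 untreated, 7.63, 7.39 and 7.32 with AP1510, 8.30, 8.50 and 8.66 with TGF-alpha and 6.79, 6.57 and 6.96 with heregulin. It followed the same order as MCM5, with no overlap between any of the 4 groups, and rose 2.75-fold with TGF-alpha (adjusted p = 1.2e-07). The remaining ring subunits rose by 2.61-fold for MCM3, 2.28-fold for MCM2, 2.11-fold for MCM7 and 2.05-fold for MCM4.

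The GINS complex, 4 small subunits that travel with the helicase, rose with TGF-alpha in each of its members. GINS2 measured 5.08, 5.12 and 5.21 untreated, 5.32, 5.44 and 5.27 with AP1510, 6.27, 6.69 and 6.82 with TGF-alpha and 4.42, 4.99 and 5.20 with heregulin, so that its heregulin arrays spread over more than those of any other group. It rose 2.75-fold with TGF-alpha (adjusted p = 4.3e-06). GINS4 rose 1.84-fold (adjusted p = 0.00046), GINS1 1.74-fold (adjusted p = 5.1e-06) and GINS3 1.62-fold (adjusted p = 0.00098). Whether the subunits' rises differ from one another was not tested. MCM10, which helps to start the helicase, rose 2.44-fold (adjusted p = 7.6e-07). MCM8, a relative of the ring subunits that acts in recombination repair, stood at 5.46, 5.48 and 5.55 untreated, 5.95, 5.58 and 5.58 with AP1510, 7.04, 7.21 and 7.12 with TGF-alpha and 6.11, 5.76 and 6.003 with heregulin. TGF-alpha raised it 3.08-fold (adjusted p = 2.8e-08), and its heregulin arrays were above the untreated ones, unlike those of MCM2, MCM5, MCM6 and MCM7.

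The firing kinase has a catalytic and a regulatory subunit. CDC7, the kinase, measured 3.51, 4.06 and 4.32 untreated, 4.28, 4.19 and 4.32 with AP1510, 5.44, 5.42 and 5.51 with TGF-alpha and 4.26, 3.98 and 4.54 with heregulin. It rose 2.82-fold (adjusted p = 3.4e-06), and the other 3 groups overlapped. DBF4, its activator, measured 3.30, 3.12 and 3.18 untreated, 3.51, 3.33 and 3.07 with AP1510, 3.22, 3.88 and 3.75 with TGF-alpha and 3.09, 2.90 and 3.16 with heregulin. Its rise of 1.34-fold was close to the threshold (adjusted p = 0.048), with 1 TGF-alpha array inside the untreated range, and it passed in 4 of 12 fits with 1 array omitted (adjusted p = 0.23 without TGF-alpha replicate 2).

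All 17 polymerase, clamp and fork genes rose with TGF-alpha, by a median of 2.23-fold. RFC4, a subunit of the loader that places PCNA on DNA, measured 5.93, 5.80 and 5.61 untreated, 6.03, 6.12 and 5.97 with AP1510, 7.72, 7.76 and 7.76 with TGF-alpha and 5.77, 5.77 and 5.78 with heregulin. It had the smallest adjusted p of the 48 with TGF-alpha, at 3.90-fold (1.97 ± 0.09, adjusted p = 5.2e-10), and its heregulin arrays lay within the untreated range. PRIM1, the catalytic subunit of primase, measured 6.10, 5.82 and 6.07 untreated, 6.48, 6.40 and 6.16 with AP1510, 7.63, 8.14 and 7.64 with TGF-alpha and 5.996, 5.60 and 6.15 with heregulin. It rose 3.49-fold (adjusted p = 2.2e-07), with TGF-alpha replicate 2 higher than the other two. POLA1 and POLA2, which with the primase form polymerase alpha, rose 2.62-fold and 2.39-fold, and PRIM2 2.32-fold. For the leading and lagging strand polymerases the rises were 1.81-fold for POLE and 2.57-fold for POLE2, both of polymerase epsilon, and 1.73-fold for POLD1 and 1.65-fold for POLD3, both of polymerase delta. PCNA, the clamp, rose 2.49-fold (adjusted p = 4.9e-08). FEN1, the flap endonuclease, rose 2.14-fold, LIG1, the ligase that seals Okazaki fragments, 1.71-fold, and the other loader subunits RFC2, RFC5 and RFC3 2.50-fold, 2.23-fold and 1.89-fold.

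RPA2 and RPA3, subunits of the single-strand binding protein RPA, moved least within this role with TGF-alpha. The subunit RPA1 is not among the members. RPA2 measured 6.21, 6.06 and 6.12 untreated, 6.35, 6.10 and 5.94 with AP1510, 6.31, 6.70 and 6.55 with TGF-alpha and 6.19, 6.22 and 6.09 with heregulin. RPA3 measured 6.34, 6.46 and 6.27 untreated, 6.53, 6.53 and 6.42 with AP1510, 6.65, 6.65 and 6.61 with TGF-alpha and 6.37, 6.35 and 6.28 with heregulin. Their rises were 1.31-fold (0.39 ± 0.11, adjusted p = 0.017) and 1.21-fold (0.28 ± 0.08, adjusted p = 0.017). Each passed in 8 of 12 fits with 1 array omitted, with adjusted p up to 0.099 for RPA2 without TGF-alpha replicate 2 and 0.08 for RPA3 without untreated replicate 3.

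All 5 nucleotide genes rose with TGF-alpha. TYMS, thymidylate synthase, which makes dTMP, stood at 6.77, 7.08 and 7.04 untreated, 7.77, 7.07 and 7.22 with AP1510, 9.27, 9.47 and 9.35 with TGF-alpha and 7.07, 6.76 and 7.33 with heregulin. Its rise with TGF-alpha was the largest of the 48, 5.28-fold (2.40 ± 0.17, adjusted p = 2.7e-08), while the other 3 groups overlapped and AP1510 replicate 1 stood apart from replicates 2 and 3. RRM2, the S-phase subunit of ribonucleotide reductase, measured 6.78, 6.51 and 6.81 untreated, 7.49, 7.11 and 7.05 with AP1510, 8.34, 8.35 and 8.58 with TGF-alpha and 6.46, 6.06 and 6.87 with heregulin. It rose 3.30-fold (adjusted p = 8.9e-07), against 2.09-fold for RRM1, the partner subunit (adjusted p = 3e-06). TK1, cytosolic thymidine kinase, rose 2.39-fold (adjusted p = 1.8e-06), and DUT, which removes dUTP, 1.61-fold (adjusted p = 0.00015).

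The chromatin and E2F genes rose least as a role, with 5 of 6 raised by TGF-alpha and a median of 1.50-fold. CHAF1B, a subunit of the histone chaperone CAF-1, measured 6.09, 6.01 and 6.24 untreated, 6.61, 6.29 and 6.43 with AP1510, 7.23, 7.31 and 7.28 with TGF-alpha and 5.92, 5.76 and 5.92 with heregulin. It rose 2.23-fold (adjusted p = 1.9e-07), its heregulin arrays lay below every untreated array, and CHAF1A, its partner, rose 1.62-fold (adjusted p = 3.4e-05). UHRF1, which recruits the maintenance DNA methyltransferase, measured 7.14, 7.05 and 7.22 untreated, 7.16, 7.17 and 7.04 with AP1510, 7.80, 7.80 and 8.04 with TGF-alpha and 6.76, 7.26 and 7.48 with heregulin. It rose 1.67-fold (adjusted p = 0.0007). A second, dimmer UHRF1 probe set stood at 5.25 ± 0.06 (SD, n = 3) untreated, 5.45 ± 0.13 with AP1510, 5.42 ± 0.11 with TGF-alpha and 5.38 ± 0.28 with heregulin. It thus did not show the TGF-alpha level of UHRF1 above that with AP1510. With the 2 probe sets averaged the rise of UHRF1 was 1.37-fold (adjusted p = 0.0037).

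The E2F genes themselves changed by less than most members. E2F1, an activator, measured 6.41, 6.40 and 6.21 untreated, 6.55, 6.80 and 6.42 with AP1510, 6.68, 6.77 and 6.997 with TGF-alpha and 6.28, 6.40 and 6.38 with heregulin. E2F2, another activator, measured 5.23, 5.59 and 5.49 untreated, 5.55, 5.66 and 5.93 with AP1510, 5.77, 5.84 and 5.96 with TGF-alpha and 5.28, 5.75 and 5.59 with heregulin. Their rises with TGF-alpha were 1.39-fold (adjusted p = 0.0036) and 1.34-fold (adjusted p = 0.024), and that of E2F2 passed in 9 of 12 fits with 1 array omitted (adjusted p = 0.13 without untreated replicate 1). E2F8, an atypical repressor, measured 5.88, 5.84 and 6.08 untreated, 5.76, 5.76 and 5.75 with AP1510, 5.88, 5.82 and 5.92 with TGF-alpha and 5.77, 5.67 and 5.75 with heregulin. It was the member that did not pass with TGF-alpha (-0.06 ± 0.08, adjusted p = 0.69), and untreated cells gave its highest mean.

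**Figure D2:**
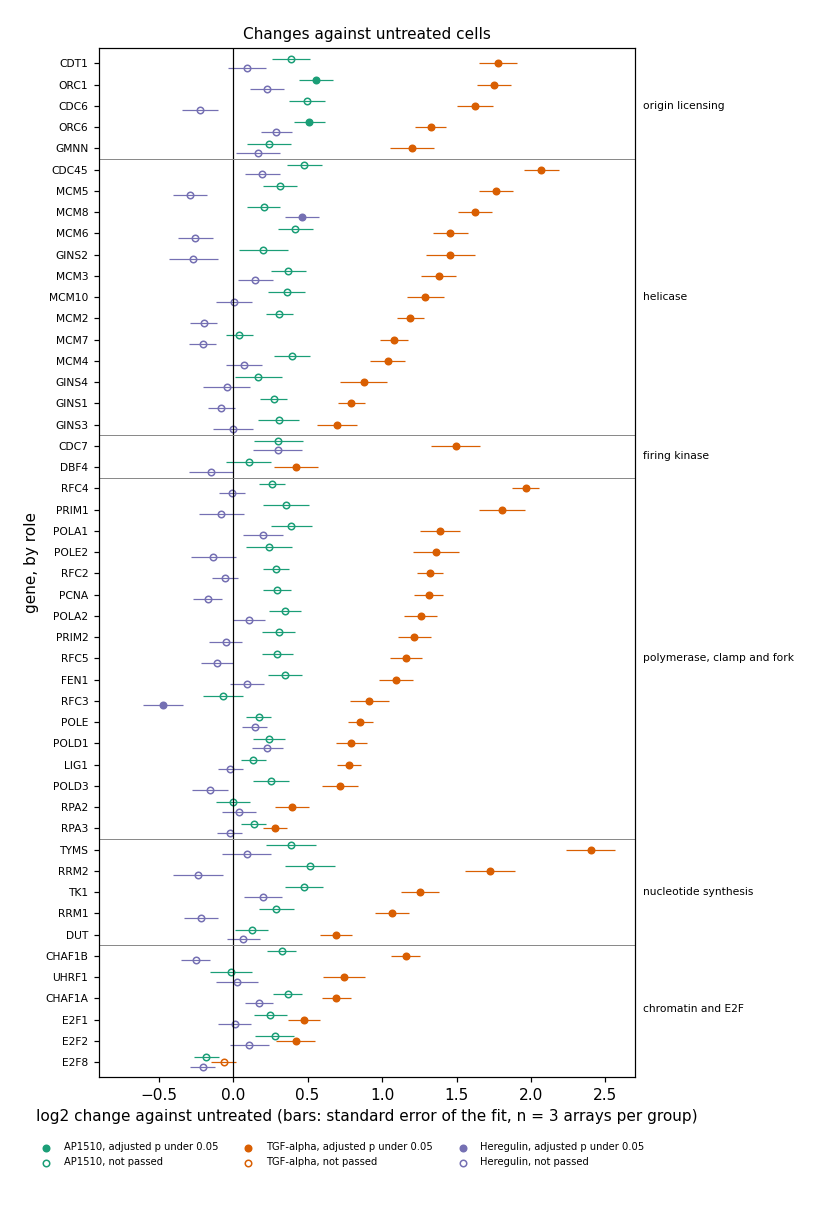
Log2 change of each gene against untreated cells for the 3 treatments, with standard errors (n = 3 arrays per group); filled points passed at an adjusted p under 0.05. TGF-alpha points lie right of the other treatments for every gene, with E2F8 alone left of 0, AP1510 points lie between -0.18 and 0.55, and heregulin points lie on both sides of 0.

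With AP1510 against untreated cells 2 of 48 members rose, ORC1 and ORC6, both of the origin recognition complex. Over all genes 0.771% rose and 0.7% fell. ORC1 rose 1.47-fold (0.55 ± 0.11, adjusted p = 0.024) and ORC6 1.43-fold (0.51 ± 0.10, adjusted p = 0.02). None fell, with 31 higher and 0 lower at an unadjusted p under 0.05. For this and the other comparisons, no share over all genes is given here at that unadjusted threshold. Although few passed, the changes leaned one way: 45 of 48 were above 0, with a median of 0.30 or 1.23-fold, while 45.4% of all genes were above 0 with a median of -0.015. In 31 members the 3 AP1510 arrays lay above the 3 untreated arrays, against 7.36% of all genes.

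Members just short of the threshold with AP1510 were CDC45 (1.39-fold, adjusted p = 0.056), CDC6 (1.41-fold, adjusted p = 0.059), CHAF1A (1.29-fold, adjusted p = 0.075) and TK1 (1.39-fold, adjusted p = 0.095), and in each the AP1510 and untreated arrays did not overlap. RRM2 had a difference of similar size with a wider spread (1.43-fold, adjusted p = 0.19), and TYMS, first with TGF-alpha, had 0.39 ± 0.17 (adjusted p = 0.36). MCM7, RPA2 and UHRF1 were near 0, with adjusted p of 0.94, 1 and 0.99, RFC3 had -0.07 ± 0.13, and E2F8 had -0.18 ± 0.08, with its AP1510 arrays below every untreated array. By role the median change was 0.49 in licensing, 0.39 in nucleotide synthesis, 0.31 in the helicase, 0.27 in chromatin and E2F, 0.26 at the polymerases and fork and 0.20 in the firing kinase.

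The AP1510 arrays were not alike. Replicate 1 was the highest of the 3 for 32 members and its median difference from the untreated mean was 0.43, against 0.25 and 0.20 on replicates 2 and 3. The count that rose was 0 without AP1510 replicate 1 or without untreated replicate 1, where 19 and 27 members were higher at an unadjusted p under 0.05. It was 1 without AP1510 replicate 2 or untreated replicate 2 or 3, and 4 without heregulin replicate 1, which enters through the shared spread. The median change was 0.24 without AP1510 replicate 1.

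**Figure D3:**
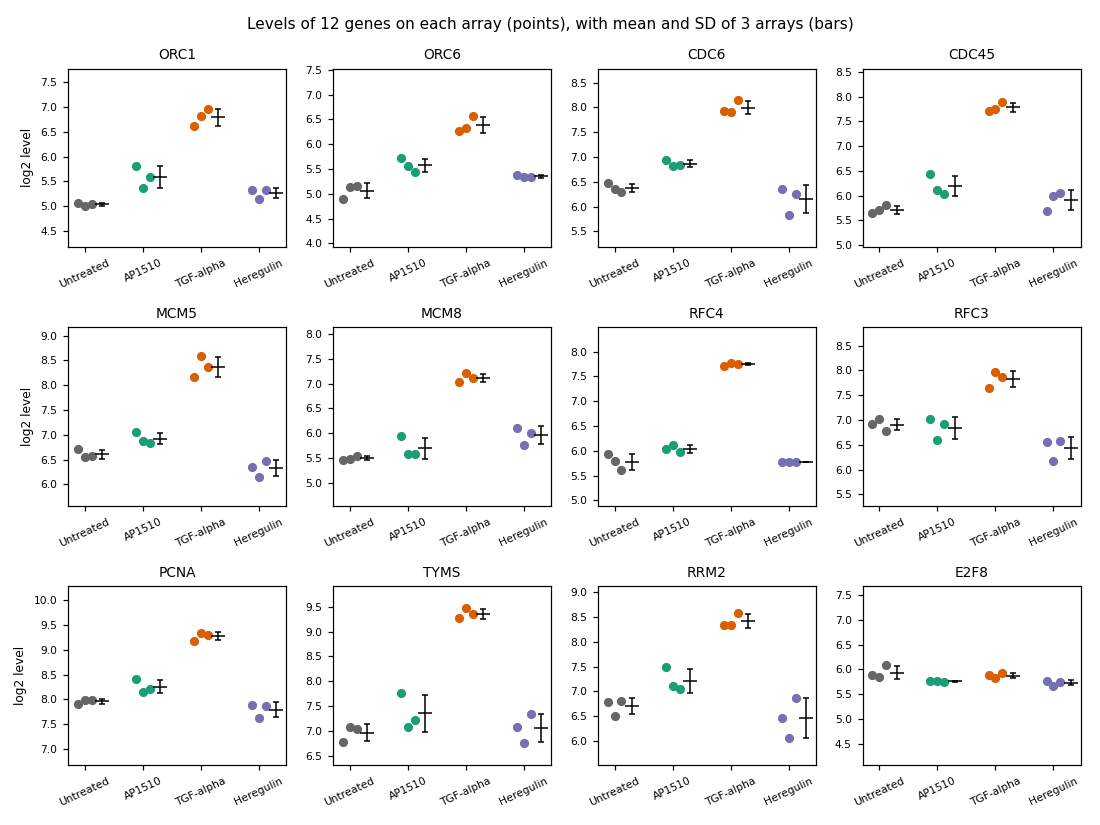
Log2 level of 12 of the genes on each array (points), with the mean and SD of the 3 arrays beside them; every panel spans the same number of log2 units. All genes but E2F8 are highest on the TGF-alpha arrays, and all but RFC3, TYMS and E2F8 lie above untreated on each AP1510 array. With heregulin ORC1, ORC6 and MCM8 are above untreated on each array, and MCM5, RFC3, PCNA and E2F8 below. E2F8 spans a narrow range, with its AP1510 arrays also below untreated.

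Heregulin changed few members. With heregulin against untreated cells 1 of 48 rose and 1 fell, while 3.45% of all genes rose and 5.06% fell. The median change was -0.0039, against 0.0070 over all genes, and 23 of 48 were above 0. MCM8 rose 1.38-fold (0.46 ± 0.11, adjusted p = 0.016). RFC3, whose arrays read 6.93, 7.01 and 6.78 untreated, 7.02, 6.59 and 6.91 with AP1510, 7.64, 7.96 and 7.87 with TGF-alpha and 6.57, 6.17 and 6.58 with heregulin, fell 1.38-fold (-0.47 ± 0.13, adjusted p = 0.037). Its heregulin arrays lay below all 9 others. Each of these calls held in 8 of 12 fits with 1 array omitted, with adjusted p up to 0.068 for MCM8 without heregulin replicate 1 and 0.15 for RFC3 without heregulin replicate 2. The number passed was 0 without untreated replicate 1 or 2 (4 and 8 at an unadjusted p under 0.05) and 1 without untreated replicate 3 or any 1 heregulin array. All 3 heregulin arrays were above the untreated ones for 5 members, against 10.5% of all genes (ORC1, ORC6, MCM8, POLD1 and POLE), and below them for 8, against 13.3%. The 8 were MCM2, MCM5, MCM6, MCM7, PCNA, RFC3, CHAF1B and E2F8. Both sets are named after their values were seen. Both counts are near the shares over all genes. The ring subunits were on both sides of 0, with log2 differences of -0.29 for MCM5, -0.25 for MCM6, -0.21 for MCM7, -0.20 for MCM2, 0.07 for MCM4 and 0.15 for MCM3. Apart from RFC3, none of the 8 passed. The 3 heregulin arrays differed, with replicate 2 the lowest of the 3 for 30 members and replicate 3 the highest for 29. With arrays weighted by their quality, which gave heregulin replicate 3 a weight of 4.62 and replicate 2 a weight of 0.322, 8 members rose and 2 fell. Over all 18417 genes 1384 rose and 1616 fell in that fit, against 635 and 931 without weights.

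TGF-alpha and AP1510 share the harvest time, and untreated arrays enter their comparison through the shared spread alone. With TGF-alpha against AP1510, 42 of 48 members were higher and 0 lower (0 lower also at an unadjusted p under 0.05), while 11.2% of all genes were higher and 10.4% lower. The median difference was 0.89. TYMS was higher by 4.03-fold (adjusted p = 3.2e-07), RFC4 by 3.26-fold (adjusted p = 3.2e-09) and CDC45 by 3.01-fold (adjusted p = 1e-07). The 6 that did not pass were GINS3 (0.39, adjusted p = 0.054), DBF4 (0.32), RPA3 (0.14), E2F1 (0.23), E2F2 (0.14) and E2F8 (0.12).

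With heregulin against TGF-alpha, 46 of 48 were lower and 0 higher (also 0 higher at an unadjusted p under 0.05), while 11.8% of all genes were lower and 9.88% higher. The median difference was -1.19. TYMS was 4.96-fold lower (adjusted p = 4.7e-08), MCM5 4.15-fold (adjusted p = 2.8e-09), RFC4 3.92-fold, RRM2 3.89-fold, PRIM1 3.69-fold, CDC45 3.66-fold, CDC6 3.60-fold, GINS2 3.30-fold, MCM6 3.28-fold and CDT1 3.22-fold. E2F2 (-0.31, adjusted p = 0.11) and E2F8 (-0.14, adjusted p = 0.29) did not pass.

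Heregulin against AP1510 gave a smaller difference in the same direction. Lower with heregulin were 11 of 48 members and higher 0 (29 lower and 1 higher at an unadjusted p under 0.05), while 3.95% of all genes were lower and 3.27% higher. The 11 came from licensing (CDC6), the helicase (MCM2, MCM5, MCM6, GINS1), the clamp and its loader (PCNA, RFC2, RFC5), ribonucleotide reductase (RRM1, RRM2) and CAF-1 (CHAF1B). RRM2 was 1.69-fold lower (adjusted p = 0.011), CDC6 1.64-fold (adjusted p = 0.0014), MCM6 1.59-fold (adjusted p = 0.0017), MCM5 1.52-fold (adjusted p = 0.0034) and CHAF1B 1.49-fold (adjusted p = 0.0014). ORC1 and ORC6, the members that AP1510 raised against untreated cells, differed by -0.33 ± 0.11 (adjusted p = 0.11) and -0.22 ± 0.10 (adjusted p = 0.24). In 30 members all heregulin arrays lay below all AP1510 arrays, against 11.4% of all genes. The count that passed was 7 without heregulin replicate 2, the lowest of the heregulin arrays for most members, and 6 in a fit of these 2 groups alone. Without AP1510 replicate 1, 7 members were lower and 1 higher. Array quality weights gave 11 lower and 1 higher.

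The other genes of the pathway were taken from lists by function. Beside their counts stand the shares of all genes that rose and fell. These were 12.5% and 13.4% with TGF-alpha, 0.771% and 0.7% with AP1510, and 3.45% and 5.06% with heregulin. Of 14 other genes listed with licensing and loading, not all of which act in it, 8 rose with TGF-alpha. None rose with AP1510 or heregulin, and none fell. The largest rises were those of DTL (2.89-fold), the receptor of the ligase that destroys CDT1, FBXO5 (2.74-fold), an inhibitor of the anaphase-promoting complex, and CDCA7 (2.10-fold). With AP1510 and with heregulin their log2 differences from untreated cells were 0.55 and -0.36 for DTL, 0.29 and -0.11 for FBXO5 and 0.06 and -0.22 for CDCA7. None of these passed, and for DTL the differences with the 2 treatments had opposite signs (adjusted p = 0.086 and 0.16). Of 28 other firing and fork genes 24 rose with TGF-alpha, 3 with AP1510 and 1 with heregulin, and none fell. The 3 were TICRR, DONSON (1.34-fold, adjusted p = 0.045) and TOP2A (1.55-fold, adjusted p = 0.0099), the last 2 named after their values were seen. CLSPN, the fork checkpoint mediator claspin, rose 3.55-fold with TGF-alpha, WDHD1, which ties polymerase alpha to the helicase, 3.52-fold, and TICRR, which helps to load CDC45, 3.28-fold. TICRR also rose with AP1510 (1.45-fold, adjusted p = 0.015) and with heregulin (1.41-fold, adjusted p = 0.0058). The log2 differences with AP1510 and with heregulin, which did not pass, were 0.49 and -0.48 for CLSPN and 0.46 and 0.04 for WDHD1.

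Nucleotide supply beyond the 5 members was mixed. Of 14 measured genes of deoxynucleotide supply and nucleoside salvage 7 rose and 2 fell with TGF-alpha, and 0 changed with AP1510. The falls were near the 13.4% of all genes that fell with TGF-alpha. With heregulin 2 fell, the mitochondrial kinase TK2 (1.44-fold, adjusted p = 0.001) and the p53-induced reductase subunit RRM2B (1.24-fold, adjusted p = 0.029), both named after their values were seen. DTYMK, thymidylate kinase, rose 1.74-fold, UCK2, uridine-cytidine kinase, 1.44-fold and DCK, deoxycytidine kinase, 1.39-fold, while SAMHD1, which degrades deoxynucleotides, fell 1.36-fold (adjusted p = 0.034) and CDA, cytidine deaminase, 1.31-fold (adjusted p = 0.0018). With AP1510 and with heregulin the log2 differences, none of which passed, were 0.11 and 0.09 for DTYMK, -0.06 and 0.20 for UCK2, 0.05 and -0.40 for DCK, 0.08 and 0.03 for SAMHD1 and 0.02 and -0.09 for CDA. Of 16 measured genes of purine and pyrimidine synthesis 15 rose with TGF-alpha, 0 with AP1510 and 2 with heregulin. CAD, which starts pyrimidine synthesis, rose 2.55-fold with TGF-alpha and 1.34-fold with heregulin (adjusted p = 0.026), and CTPS1, CTP synthase, 2.35-fold and 1.47-fold (adjusted p = 0.0071). PRPS1, which makes the ribose phosphate donor, rose 2.13-fold with TGF-alpha and differed by 0.11 (log2) with AP1510 and 0.08 with heregulin, which did not pass. With AP1510 the log2 differences of CAD and CTPS1 were 0.31 and 0.19, which did not pass. With heregulin 2 of the 16 genes of base synthesis rose and none of the 5 nucleotide members passed. Whether these lists differ was not tested.

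Regulators of the cell cycle and chromatin genes were counted in the same way. Of 15 other E2F and RB genes 8 rose and 2 fell with TGF-alpha, 2 rose with AP1510 and 0 passed with heregulin. The falls were near the 13.4% of all genes that fell with TGF-alpha. MYBL2, B-MYB, rose 3.62-fold with TGF-alpha and 1.55-fold with AP1510 (adjusted p = 0.0037), and E2F7, the close relative of E2F8, 2.31-fold and 1.38-fold (adjusted p = 0.011). RBL1, p107, rose 2.73-fold with TGF-alpha, while RBL2, p130, fell 1.20-fold (adjusted p = 0.048) and TFDP2, a partner of E2F, 1.29-fold (adjusted p = 0.032). With AP1510 and with heregulin the log2 differences were 0.25 and -0.21 for RBL1, -0.15 and -0.03 for RBL2 and -0.06 and -0.36 for TFDP2. With heregulin those of MYBL2 and E2F7 were 0.22 and 0.14, and none of these passed. Of 11 genes of cyclins, their kinases and regulators of these, 6 rose and 2 fell with TGF-alpha. With AP1510 1 of them rose, and with heregulin 3 fell. CCNA2, cyclin A2, rose 2.85-fold with TGF-alpha and 1.61-fold with AP1510 (adjusted p = 0.0051), CDC25A, which activates the kinases, 1.87-fold, and CDK4 1.60-fold. CDKN1B, the inhibitor p27, fell 1.68-fold with TGF-alpha and 1.33-fold with heregulin (adjusted p = 0.028), and CDKN1A, p21, 1.26-fold and 1.43-fold (adjusted p = 0.0054). The third gene that fell with heregulin was CCND1, cyclin D1 (1.45-fold, adjusted p = 0.0086), named after its values were seen. The log2 differences with AP1510 and with heregulin were 0.23 and 0.04 for CDC25A and -0.12 and -0.05 for CDK4. With AP1510 those of CDKN1B and CDKN1A were -0.09 and -0.22, and with heregulin that of CCNA2 was 0.33, none of which passed. Whether the falls of CDKN1B and CDKN1A bear on the levels of the members was not tested. Of 8 replication-coupled chromatin genes 6 rose with TGF-alpha, 1 with AP1510 and 0 with heregulin, where the histone chaperone ASF1A, named after its values were seen, fell 1.37-fold (adjusted p = 0.0048). HELLS, a chromatin remodeller, rose 2.84-fold and 1.64-fold with TGF-alpha and AP1510 (adjusted p = 0.0061 for AP1510), DNMT1, the maintenance methyltransferase, 2.44-fold with TGF-alpha and NASP, a histone chaperone, 1.80-fold. The log2 differences with AP1510 and with heregulin were 0.26 and 0.03 for DNMT1 and 0.08 and -0.02 for NASP. That of HELLS with heregulin was -0.04, and none of these passed.

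Mitosis genes, the nearest other group of the cell cycle, stood beside the members as follows. Of 39 measured, 39 rose with TGF-alpha, 22 with AP1510 and 12 with heregulin, against 47, 2 and 1 of the 48 members. Over all genes 12.5%, 0.771% and 3.45% rose. The medians were 1.42, 0.54 and 0.23 for mitosis genes and 1.19, 0.30 and -0.0039 for the members. On each AP1510 array the mitosis median was above that of the members, at 0.72, 0.41 and 0.51 against 0.43, 0.25 and 0.20, and so it was on the heregulin arrays, at 0.27, 0.05 and 0.42 against -0.01, -0.11 and 0.11. MKI67, which encodes the Ki-67 antigen, rose 3.64-fold, 1.76-fold and 1.42-fold with TGF-alpha, AP1510 and heregulin (adjusted p = 0.0031 for heregulin), TTK, the checkpoint kinase, 3.58-fold and 1.52-fold with TGF-alpha and AP1510, and NCAPG, a condensin subunit, 3.58-fold and 1.57-fold. With heregulin the log2 differences of TTK and NCAPG, 0.21 and 0.24, did not pass. The comparisons share the untreated arrays, and whether the lists differ was not tested.

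**Figure D4:**
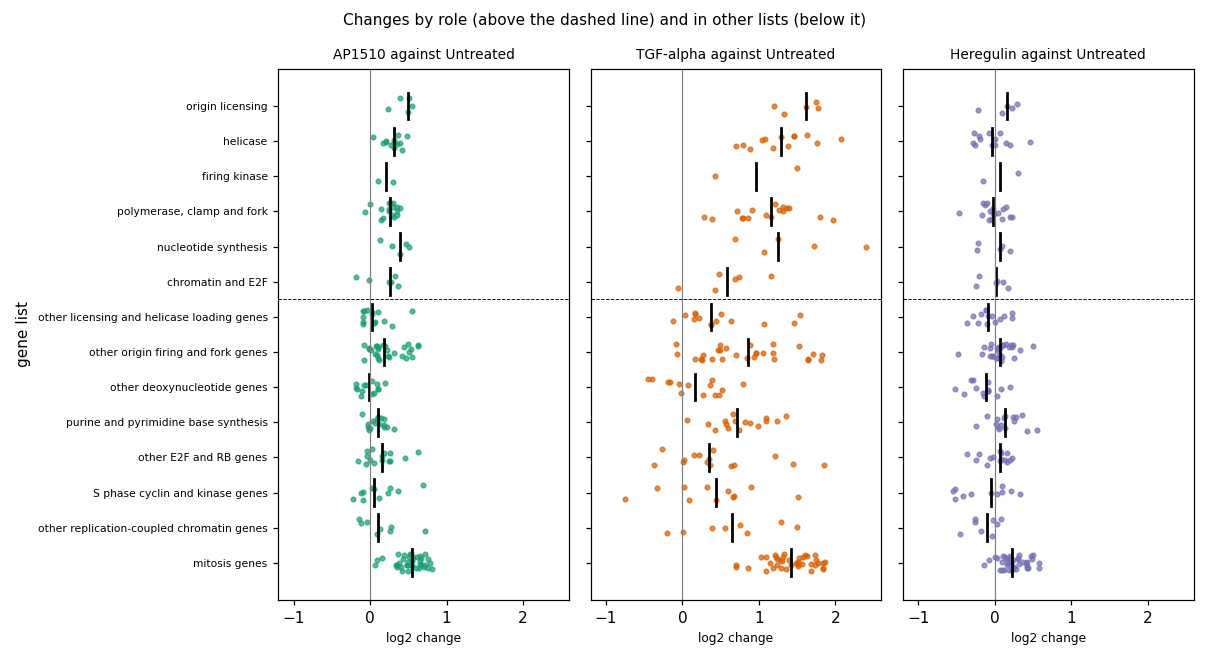
Log2 change against untreated cells for each gene (points) and the median of each list (black bars), with the 48 members by role above the dashed line and other lists below it. With TGF-alpha the medians of all lists lie right of 0, with AP1510 mitosis and licensing genes lie farthest right, and with heregulin the medians lie between -0.12 and 0.17 apart from the mitosis genes at 0.23.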

How the data were processed

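Transcript levels were measured on 12 arrays, 3 in each of 4 groups taken from the sample labels. The authors deposited log2 values made, per the submitters' processing notes, by RMA, which corrects background, equalises the arrays' distributions and summarises probes. The sources used here give no RMA version, and equalised distributions can hide a shift shared by most genes. Of 33297 probe sets, 19460 named 1 gene, 1754 several and 12083 none. Those with 1 gene were matched by Entrez ID to RefSeq names, the probe set with the highest mean stood for a gene (769 genes had more than 1), and 18417 genes were tested.

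A mean per group was fitted to all 12 arrays with limma 3.58.1 in R 4.3.3 (lmFit and eBayes, 8 residual and 7.55 prior degrees of freedom), with 6 two-sided contrasts and limma's F test of any difference among the 4 groups. The script was tested on simulated data. Benjamini-Hochberg adjustment ran over all genes within a contrast. Alternatives were repeated quantile normalization, median centring, a filter on dim genes, the mean of a gene's probe sets, array quality weights, a trend in the prior variance, fits of only 2 groups, and leaving out each array. The number of arrays limits the precision.

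The members, their roles, the motifs and the other lists were chosen with earlier results of these data known. Values by array are given for members that passed with AP1510, the 10 largest rises with TGF-alpha, the 2 largest per role, the 10 largest differences between heregulin and TGF-alpha, any member that fell, and the 6 smallest changes with TGF-alpha. Of each other list the 3 largest changes with TGF-alpha that passed in each direction are named.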

Additional observations from a re-analysis of the deposited data

How the results depend on the processing

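No member's call reversed under any alternative. The counts of members passed were least stable where few passed. With AP1510 against untreated cells, 2 members passed, against 6 with dim genes left out (43 members remained in that fit), 5 with array quality weights, 5 with a trend in the prior variance, 4 with only the 2 groups fitted, and 0 to 4 when 1 array was left out. Over all genes 142 rose and 129 fell, against 221 and 194 of 9768 with dim genes left out. The other fits called 184 and 174 with array quality weights, 208 and 208 with the trend and 112 and 82 with 2 groups. With heregulin against untreated cells 2 passed, against 10 with array quality weights, 1 with only the 2 groups fitted, and 0 to 2 when 1 array was left out. Over all genes 635 rose and 931 fell, against 1384 and 1616 with array quality weights and 476 and 679 with 2 groups. With heregulin against AP1510 11 passed, against 6 with only the 2 groups fitted and 7 to 13, in both directions together, when 1 array was left out. Over all genes 603 were higher and 728 lower, against 369 and 374 with only the 2 groups fitted. The counts for TGF-alpha against untreated cells (43 to 47), TGF-alpha against AP1510 (39 to 43) and heregulin against TGF-alpha (44 to 47), and that of the F test (43 to 46), stayed within 1.5 times their value when 1 array was left out, and so did they under the other settings. The members' median change stayed within 1 SD of the arrays' medians under all 19 settings, from 0.24 to 0.33 with AP1510, 1.14 to 1.24 with TGF-alpha and -0.039 to 0.059 with heregulin. The F test has no fit of only 2 groups. The causes of these differences were not tested. The deposited values carry no detection calls, so dim members near background, such as DBF4, cannot be marked. No paired analysis was possible because the labels give the arrays no shared replicate numbers.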
